A study of Caenorhabditis elegans with 2 samples.

Results

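The 346 genes annotated as snoRNA in Caenorhabditis elegans, and the DNA in front of them, were examined for binding of the transcription factor HLH-15. They were all the genes of that biotype in the Ensembl annotation of the assembly WBcel235, out of 46890 genes on the 6 nuclear chromosomes, and none was left out for lack of a peak. A gene was given the highest signal value of any peak whose summit lay within 100 bp of it, in each of the deposited peak lists of the matching assembly, ce11.

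The data are chromatin immunoprecipitation followed by sequencing of 2 biological replicates of 1 group, with no second condition. The animals were hermaphrodite late embryos of strain OP566, genotype unc-119(tm4063) III; wgIs566, taken 3 hours after synchronization by egg bleaching. In this strain an integrated transgene supplies HLH-15 carrying GFP and FLAG at the C-terminal end, and both replicates carry the transgene and the unc-119 allele and come from the same donor strain. The labels describe a pull-down with an antibody against GFP but list hlh-15 in the antibody field, and which of these holds was not resolved. Whole embryos were used, so a peak does not tell in which cells HLH-15 was bound, and no untagged strain is at hand to show what the same pull-down gives without the tagged protein. The promoter that drives the transgene is not given in the sources used here.

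snoRNAs are short RNAs of the nucleolus that guide chemical modification of ribosomal and spliceosomal RNA. Box C/D snoRNAs direct ribose methylation and the usually longer box H/ACA snoRNAs direct pseudouridylation. Many are cut out of the introns of host genes, while others have promoters of their own. RNA polymerase III genes such as tRNA genes carry an internal promoter made of an A box and, further along, a B box, which are recognised by the factor TFIIIC, and they end at a run of T. In budding yeast the snoRNA gene SNR52 is transcribed by RNA polymerase III from such boxes placed in front of the mature RNA. HLH-15 belongs to the basic helix-loop-helix factors, which bind the E-box CANNTG.

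Paired A and B boxes of the tRNA type lay just in front of nearly all snoRNA genes with a reproducible peak, some reaching into the gene. This holds at a lenient score, passed at 40 of 44 such genes, while a stricter score left 24 of 44. The windows that follow show the boxes at the strongest genes with such a pair in each class. ZK994.7, B0334.12 and ZK265.10 had higher signals than some of these genes and no pair in the window, and they are described further on. Each window runs from 100 bp upstream of the annotated gene to its first 20 bases, in the direction of the gene, and is taken from the NCBI sequence of WBcel235. Capitals mark the best-scoring A box and, after it, the best-scoring B box, found with matrices built from tRNA genes alone, whose most frequent bases were TGGCTCAGTGG and GGTTCGAATCC. C51F7.3 (chrV:12303608-12303727, plus strand) lies in an intron of the FERM domain gene frm-7, C10C6.8 (chrIV:11474172-11474291, minus strand) in an intron of the cation-transporting ATPase gene catp-8, and both are on the host's strand. T03F7.8 (chrV:11314158-11314277, plus strand) in cutl-18 and C04G6.12 (chrII:5105212-5105331, minus strand) in mpk-2 are on the strand opposite to the host. W03C9.9 (chrII:11960798-11960917, plus strand), T06C12.16 (chrV:15873907-15874026, minus strand) and F32E10.10 (chrIV:7574022-7574141, plus strand) are intergenic.
C51F7.3: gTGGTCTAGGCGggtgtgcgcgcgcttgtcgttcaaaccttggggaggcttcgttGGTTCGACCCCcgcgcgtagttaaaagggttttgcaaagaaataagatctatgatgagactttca
C10C6.8: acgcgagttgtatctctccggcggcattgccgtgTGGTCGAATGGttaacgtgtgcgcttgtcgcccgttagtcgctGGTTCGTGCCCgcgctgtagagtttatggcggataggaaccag
T03F7.8: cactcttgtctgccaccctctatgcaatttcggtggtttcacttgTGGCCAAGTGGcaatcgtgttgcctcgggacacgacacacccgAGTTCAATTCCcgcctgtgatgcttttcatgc
C04G6.12: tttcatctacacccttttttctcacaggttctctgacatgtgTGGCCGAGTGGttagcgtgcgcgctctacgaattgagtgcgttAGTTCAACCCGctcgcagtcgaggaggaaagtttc
W03C9.9: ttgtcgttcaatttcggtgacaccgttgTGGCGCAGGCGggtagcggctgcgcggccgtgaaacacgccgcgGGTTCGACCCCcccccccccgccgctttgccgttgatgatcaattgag
T06C12.16: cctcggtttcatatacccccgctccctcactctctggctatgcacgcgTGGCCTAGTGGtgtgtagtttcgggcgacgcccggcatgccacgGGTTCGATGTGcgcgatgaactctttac
F32E10.10: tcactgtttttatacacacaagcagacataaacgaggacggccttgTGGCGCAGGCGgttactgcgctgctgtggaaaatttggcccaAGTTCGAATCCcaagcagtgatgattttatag
In the intronic T03F7.8 and the intergenic F32E10.10 alike, the boxes stand between the upstream flank and the annotated start, and the snoRNA itself begins a short way beyond the B box.

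For comparison, the tRNA gene WBGene00000308 (chrX:13665555-13665673, plus strand), which had the highest signal of any tRNA gene, holds both boxes inside the gene. R166.7 (chrII:10545310-10545429, minus strand) and Y59E1B.14 (chrX:1891409-1891528, plus strand) have the boxes but no reproducible peak. ZK994.7 (chrV:8500479-8500598, plus strand), in an intron of the peroxidasin gene pxn-1, has a strong peak and no such pair. C17H12.36 (chrIV:6792874-6792993, plus strand) is shown as an intergenic snoRNA gene with neither, picked for a pair score nearest to the median of genes without a pooled-list peak. ZK994.7 and C17H12.36 therefore have no capitals.
WBGene00000308: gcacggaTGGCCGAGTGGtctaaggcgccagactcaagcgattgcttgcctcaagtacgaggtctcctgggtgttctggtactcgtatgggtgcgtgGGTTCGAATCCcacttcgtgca
R166.7: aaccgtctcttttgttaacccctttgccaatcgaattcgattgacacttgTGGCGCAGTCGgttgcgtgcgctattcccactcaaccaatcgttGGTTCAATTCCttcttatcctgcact
Y59E1B.14: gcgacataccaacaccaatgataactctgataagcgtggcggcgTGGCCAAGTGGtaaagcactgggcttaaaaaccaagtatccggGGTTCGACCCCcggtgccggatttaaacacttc
ZK994.7: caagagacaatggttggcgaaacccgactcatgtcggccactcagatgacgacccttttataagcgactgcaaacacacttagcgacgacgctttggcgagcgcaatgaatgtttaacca
C17H12.36: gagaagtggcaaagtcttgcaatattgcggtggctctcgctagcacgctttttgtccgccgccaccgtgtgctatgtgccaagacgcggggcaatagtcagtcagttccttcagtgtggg
The sequence in front of Y59E1B.14 carries a pair as close to the tRNA pattern as that of any snoRNA gene printed here, with a pair score of 33.8, although no list holds a peak at the gene.

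Of the 346 snoRNA genes, 44 had a summit of the authors' IDR list within 100 bp, which is 12.7% (Wilson 95% interval 9.61 to 16.6). The irreproducible discovery rate (IDR) measures how well peak ranks hold between replicates, and the 407 peaks of that list are the strongest of the pooled list. Among all other annotated genes the share was 0.943%, and among other genes of at most 300 bp it was 1.08%. tRNA genes reached 21.1%, with 129 of 612 genes, snRNA genes 4.65%, with 6 of 129, and miRNA genes 0.766%, with 2 of 261. Intervals throughout cover counting over genes only. Sequence copies differ between these kinds. No snoRNA gene was identical in sequence to another annotated snoRNA gene, and copies elsewhere in the genome were not searched for. Of the 143 tRNA genes with no identical copy 17 had an IDR peak, or 11.9%.

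The longer lists, which hold background as well as peaks, did not set snoRNA genes apart in the same way. In the pooled list 94 snoRNA genes had a summit within 100 bp, or 27.2% (22.8 to 32.1), against 18.7% of other genes. In replicate 1 it was 88 genes, or 25.4% (21.1 to 30.3), against 21.6% of other genes, and in replicate 2 it was 103, or 29.8% (25.2 to 34.8), against 28.1%. In both replicates the interval takes in the background share. The results therefore turn on the 44 genes with an IDR peak, whose best peaks are 43 different ones because the neighbours C51F7.3 and C51F7.4 share 1. Those peaks made up 11 of the 25 strongest IDR peaks, 19 of the strongest 50 and 24 of the strongest 100.

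Signal values are the authors' scores on a scale that differs between lists, so levels are set side by side only within a list. C51F7.3 had 388 pooled, 248 in replicate 1 and 143 in replicate 2, the second highest pooled value of all peaks. W03C9.9 had 325 pooled, 198 in replicate 1 and 127 in replicate 2, and ZK265.10, also intergenic, had 295 pooled, 182 in replicate 1 and 117 in replicate 2. These snoRNA genes were near the top of all lists alike. ZK994.7 had 275 pooled, 157 in replicate 1 and 116 in replicate 2, so the gene without a box pair was among the strongest in each. T06C12.16 had 249 pooled, 147 in replicate 1 and 96.7 in replicate 2. T03F7.8, the strongest of the genes opposite to their host, had 217 pooled, 135 in replicate 1 and 81.8 in replicate 2.

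The next genes of each class were close to each other. B0334.12, in an intron of the potassium channel gene twk-5, had 187 pooled, 125 in replicate 1 and 56.5 in replicate 2. C04G6.12, in the MAP kinase gene mpk-2, had 184 pooled, 104 in replicate 1 and 78.2 in replicate 2. C10C6.8 had 179 pooled, 104 in replicate 1 and 73.1 in replicate 2. These 3 genes keep no common order between the replicates, since B0334.12 was the highest of them in replicate 1 and the lowest in replicate 2. Further down, Y43F8C.22 had 167 pooled, 85.4 in replicate 1 and 79.6 in replicate 2, while C27H6.5, in an intron of the endocytosis gene unc-41, had 162 pooled, 109 in replicate 1 and 48.1 in replicate 2. F32E10.10 had 160 pooled, 117 in replicate 1 and 44.2 in replicate 2. The remaining intergenic genes of the leading 8, H09I01.2, T19B4.8, C41C4.11 and C46C2.8, lay between 136 and 152 pooled, and the remaining same-strand ones, F55A11.10, D1046.6 and F38E11.14, between 132 and 144. The order of such neighbours thus depended on the replicate.

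**Figure D1:**
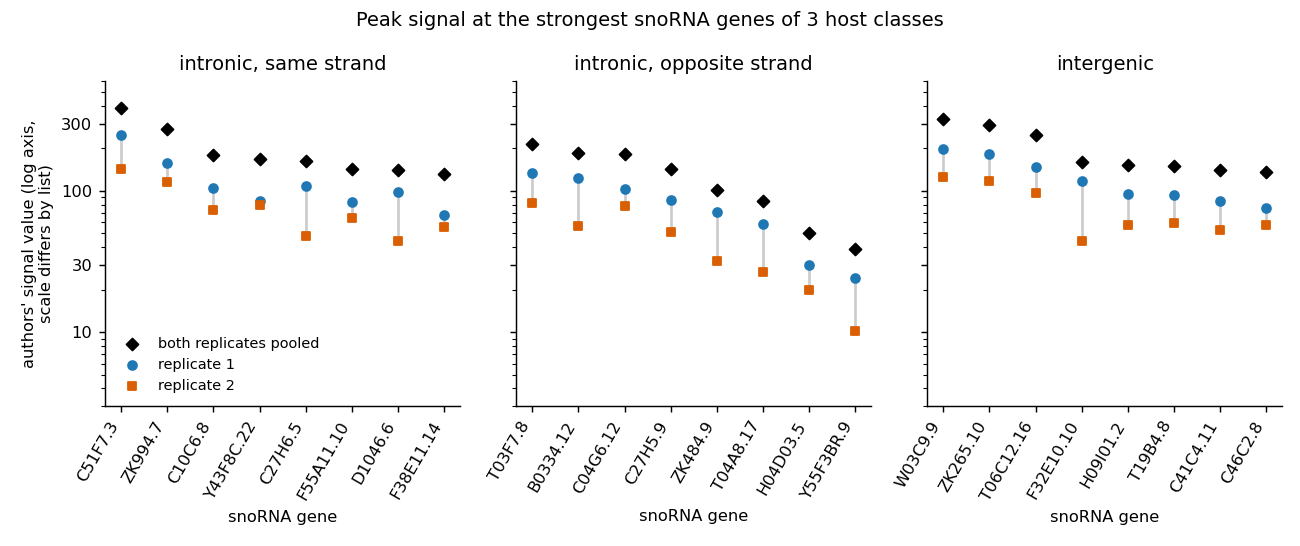
Signal value (vertical, log axis, the authors' score, with a scale that differs by list) of the 8 snoRNA genes with the highest pooled signal in each of 3 classes. Points give the pooled list, replicate 1 and replicate 2, and grey lines join the replicates; the intronic and intergenic classes start at 388 and 325, and only the opposite-strand class reaches down to genes without an IDR peak, H04D03.5 and Y55F3BR.9, at 50.3 and 38.9.

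Over all 44 genes with an IDR peak the pooled signal ran between 60.9 and 388, with a median of 134, and over the 50 genes with a pooled-list peak only between 19.4 and 57.3, with a median of 25. The IDR list is cut on this same value, at 58.9, so the gap between these groups is set by construction. The median of all 17654 pooled peaks was 23.9, so the genes with a pooled-list peak only sat at the level of the list as a whole. In replicate 1 the genes with an IDR peak had a median of 84.0, against 20.9 for those with a pooled-list peak only, and in replicate 2 it was 45.2 for those with an IDR peak, against 13.6. These replicate values entered the pooled ones and are not separate evidence.

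Of the 44 genes, 43 had a peak in both replicate lists and 35 were within 100 bp of one of the 407 strongest peaks of each replicate. C05D2.15, in an intron of madf-11, had 72.2 pooled and 46.8 in replicate 2 but no summit within 100 bp in replicate 1. K11C4.6, in an intron of the spectrin gene unc-70, had 60.9 pooled and 48.8 in replicate 1 but 9.83 in replicate 2, near the middle of that list, whose median was 9.97. Of the genes with a pooled-list peak only, 15 of 50 had a peak in both replicates. Among the 252 with no pooled-list peak, 1 had both, C08D8.3, with 21.2 in replicate 1 and 14.4 in replicate 2. Another 43 of these 252 had a peak in 1 replicate list, so genes with none are those without a pooled-list peak, here and below. Across the 43 genes with an IDR peak and both values, log2 signal correlated between replicates with a Pearson r of 0.83 and a Spearman rho of 0.84. Genes are not independent replicates, and both libraries share the strain and the assay.

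**Figure D2:**
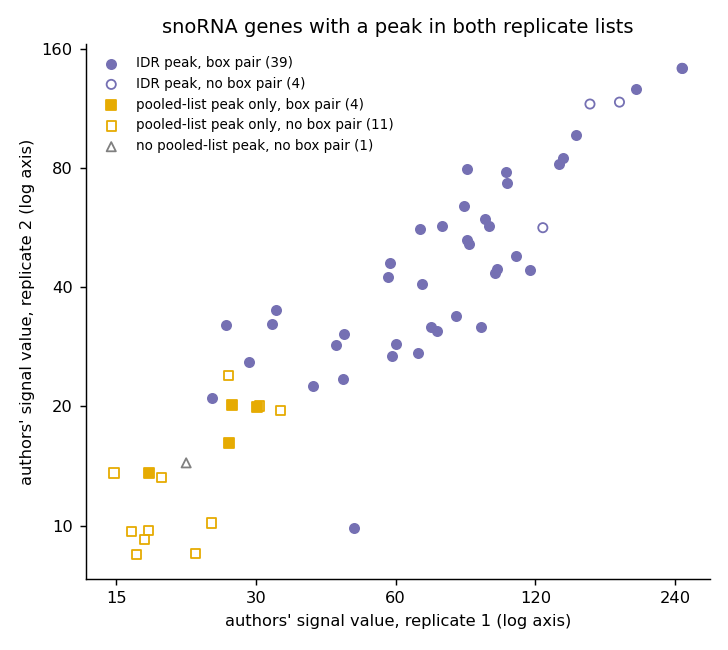
Signal value of replicate 1 (horizontal) and replicate 2 (vertical), both on log axes and in the authors' score, for the 59 snoRNA genes with a peak in both lists. Filled symbols have a box pair and open symbols have none; the genes with an IDR peak lie along a rising band, with K11C4.6 alone far below it at 48.8 and 9.83.

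Shares with a peak were close in snoRNA genes inside and outside protein-coding hosts. Of the genes, 169 lay wholly inside introns, 124 were intergenic and 53 overlapped a protein-coding exon or the edge of a gene. An IDR peak was found at 24 of the 169 intronic genes, or 14.2% (9.73 to 20.3), at 15 of the 124 intergenic genes, or 12.1% (7.47 to 19.0), and at 5 of the 53 others, or 9.43% (4.10 to 20.3). The 5 others were C51F7.4 with a pooled signal of 388, T02E1.9 with 223, T27A3.9 with 102, W01C9.6 with 88.2 and C14C10.8 with 70.2. The intronic and intergenic shares differed by 2.1 percentage points and each lies inside the other's interval. In the pooled list the shares were 28.4% of intronic and 28.2% of intergenic genes, against the background of 18.7%.

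Signal did not separate these classes either. Among genes with an IDR peak the median pooled signal was 117 at 24 intronic genes and 136 at 15 intergenic genes. Among all genes with a pooled-list peak it was 58.4 at 48 intronic genes and 44.1 at 35 intergenic genes, a log2 difference of 0.40. That direction did not hold in both replicates: in replicate 1 the medians were 32.0 at intronic and 30.5 at intergenic genes, and in replicate 2 they were 16.7 at intronic and 20.1 at intergenic genes. The values of the classes overlapped along almost their whole range, 19.5 to 388 for intronic and 20.2 to 325 for intergenic genes.

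Most intronic snoRNA genes lay on the strand of their host, 141 against 27 on the opposite strand, with 1 gene inside hosts on both strands. Of those on the host's strand 18 had an IDR peak, or 12.8% (8.23 to 19.3), and of those on the opposite strand 6, or 22.2% (10.6 to 40.8), against the background of 0.943%. The difference was -9.46 percentage points, same minus opposite, and the intervals overlap. In the pooled list the shares were 25.5% (19.1 to 33.3) of same-strand and 40.7% (24.5 to 59.3) of opposite-strand genes. In replicate 1 they were 20.6% (14.7 to 28.0) of same-strand and 44.4% (27.6 to 62.7) of opposite-strand genes, whose intervals barely meet, and in replicate 2 they were 31.9% (24.8 to 40) and 40.7% (24.5 to 59.3) of the same classes. The opposite-strand share was the higher in each list, but it rests on 27 genes. Other annotated genes had a pooled peak in 18.7% of cases, a replicate 1 peak in 21.6% and a replicate 2 peak in 28.1%. Same-strand intervals took in the background of either replicate and began just above the pooled background. Opposite-strand intervals lay above the pooled and replicate 1 backgrounds but took in that of replicate 2. The 6 opposite-strand genes had pooled signals between 84.7 and 217 and the 18 same-strand genes between 60.9 and 388, so the groups overlapped. Beside B0334.12, T03F7.8 and C04G6.12 they were C27H5.9 in pdl-1 with 142, ZK484.9 in the transporter gene haf-9 with 101 and T04A8.17 in ppat-1 with 84.7. An RNA on the strand opposite to its host cannot be cut out of the host's transcript. No RNA was measured here, and how these snoRNA genes are transcribed was not tested.

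Same-strand genes with an IDR peak had more intron in front of them than those with no pooled-list peak, but not than those with a pooled-list peak only. The intron upstream of the gene was 154 bp long at the median for the 18 genes with an IDR peak, 193 bp for the 18 with a pooled-list peak only and 79 bp for the 105 with none. It was shorter than 75 bp at 2 of 18, 5 of 18 and 51 of 105 genes, or 11.1% (3.10 to 32.8), 27.8% (12.5 to 50.9) and 48.6% (39.2 to 58). The shorter of the 2 with an IDR peak was Y71F9AM.7, in an intron of cogc-3, with 68 bp. Near the host's own start sites there was little else: another IDR summit lay within 1000 bp of a host transcription start site at 0 of 24 genes with an IDR peak, which allows a share of up to 12.5%, and at 8 of 121 genes with none. Those 8 include C06A1.8 and C06A1.9 in the same host, cdc-48.1. They also include C27H5.10, where the summit is that of the neighbouring snoRNA gene C27H5.9. The snoRNA gene itself lay within 1000 bp of such a site at 9 of 24 genes with an IDR peak, or 37.5% (21.2 to 57.3), and at 58 of 121 with none, or 47.9% (39.2 to 56.8).

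**Figure D3:**
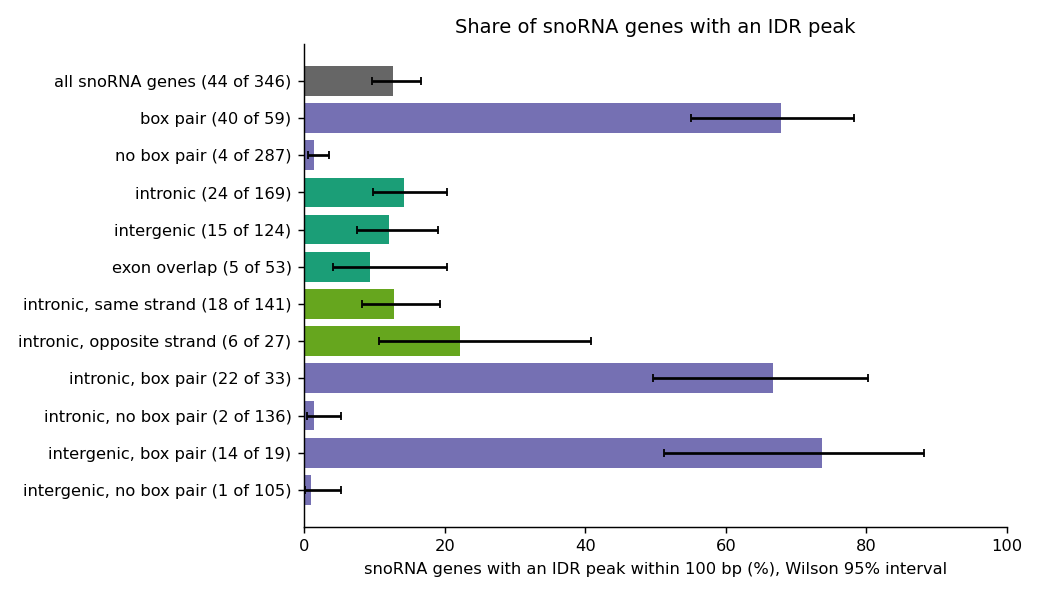
Share of snoRNA genes with an IDR peak within 100 bp (horizontal, percent) for all genes, by box pair, by host class, by strand relative to the host, and by host class and box pair together. Error bars are Wilson 95% intervals; intronic and intergenic genes stand at 14.2% and 12.1%, while genes with and without a box pair stand at 67.8% and 1.39%.

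Summits lay in front of the snoRNA rather than on it. With the first base of the gene at 0 and upstream positions negative, the 44 summits had a median of -40 bp, quartiles of -58.3 and -19.3 bp, and extremes of -95 and 159 bp. Upstream of the gene were 36 of 44, or 81.8% (68.0 to 90.5), 7 lay inside it and 1, that of B0334.12, lay downstream. The window was the same on both sides of the gene. The 50 genes with a pooled-list peak only had a median of 38 bp.

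The position was much the same in the host classes and in the replicates. The median was -36 bp at intronic genes with 19 of 24 upstream, -48 bp at intergenic genes with 14 of 15 upstream, and -24 bp at the 5 others. Within introns it was -36.5 bp on the host's strand and -30.5 bp on the opposite strand. In replicate 1 the median was -40 bp with 34 of 43 upstream, and in replicate 2 it was -43 bp with 34 of 44. At a single gene the replicates placed the summit a median of 26 bp apart, and within 50 bp at 33 of 43 genes, so positions are not resolved to single boxes.

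Pairs of boxes were scored on the gene's own strand, from 150 bp upstream to 20 bp inside, with 35 to 90 bp between the start of the A box and that of the B box. A pair was counted at a log2-odds score of at least 9.57, below which lie 1% of the distinct tRNA genes. Such a pair was found at 40 of 44 genes with an IDR peak, or 90.9% (78.8 to 96.4), at 8 of 50 with a pooled-list peak only, or 16.0% (8.34 to 28.5), and at 11 of 252 with none, or 4.37% (2.45 to 7.65). In the same windows of all other genes except tRNA genes the share was 0.418%, with 192 of 45932. On the opposite strand, which has the same GC content, the counts were 0 of 44, which allows a share of up to 6.82%, then 3 of 50 and 1 of 252. G and C change places between the strands, so these counts do not fully control for base composition. GC content of the upstream 100 bp did move with the peaks, at a median of 55% for genes with an IDR peak, 50% for those with a pooled-list peak only and 41.5% for those with none. Where a gene has a pair, that stretch holds the boxes, and their part in this shift was not tested.

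**Figure D4:**
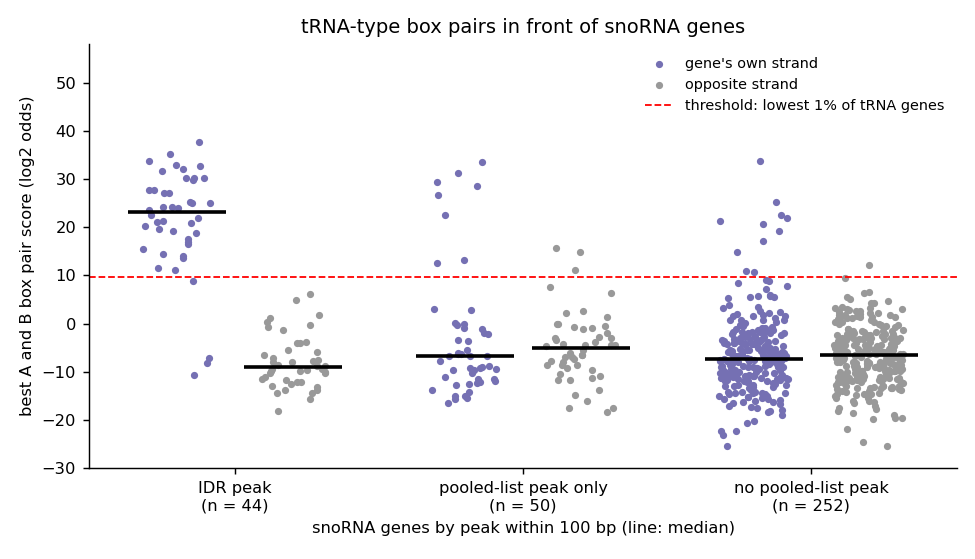
Best score of an A and B box pair (vertical, log2 odds against the tRNA-derived matrices) for each snoRNA gene, by whether it had an IDR peak, a pooled-list peak only or neither. Purple points are the gene's own strand, grey points the opposite strand, black lines medians and the red dashed line the threshold of 9.57; in the IDR group the medians are 23.06 on the gene's own strand and -9.08 on the opposite strand.

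Read the other way, the box pair separated genes with a peak more widely than host class or strand did. Of the 59 snoRNA genes with a pair 40 had an IDR peak, or 67.8% (55.1 to 78.3), against 4 of the 287 without, or 1.39% (0.543 to 3.53), where other annotated genes had 0.943%. With a pair it was 22 of 33 intronic genes, or 66.7%, 14 of 19 intergenic genes, or 73.7%, and 4 of 7 others. Without a pair it was 2 of 136, 1 of 105 and 1 of 46. Within introns, 17 of 24 same-strand genes with a pair had an IDR peak, or 70.8% (50.8 to 85.1), and 5 of 9 opposite-strand genes with a pair, or 55.6% (26.7 to 81.1). At other genes a pair at the lenient score seldom went with a peak. The genes counted had a pair in the same window and lay more than 250 bp from any tRNA or snoRNA gene. Of these 172 other genes 3 had an IDR peak, or 1.74%. At the stricter score of 21.35, the lowest 5% of tRNA genes, a pair was left at 24 of 44 genes with an IDR peak. It was left at 6 of 50 with a pooled-list peak only, at 5 of 252 with none and at 28 other genes, or 0.061%. Among snoRNA genes with a pair at the stricter score 68.6% had an IDR peak. Of the 192 other genes with a pair at the lenient score 28 kept one, so most of their pairs were weaker matches. The share with an IDR peak was not tested for those 28 genes. The 1.74% and 67.8% therefore do not compare pairs of like score.

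The geometry of the pairs was narrow and close to that of tRNA genes. At the 40 genes the A box began at a median of -58 bp, between -99 and -50, and the B box at a median of -15 bp, between -45 and -6. The starts were 43.5 bp apart at the median, between 38 and 54, against 44 bp, between 41 and 93, in the tRNA genes used for the matrices. The search allowed far more freedom than this in both position and spacing. The 8 genes with a pair and a pooled-list peak only had the same layout, with medians of -58 and -14.5 bp. So had the 11 without a pooled-list peak, with -56 and -13 bp. The summit lay a median of 19 bp after the start of the A box, it lay between the starts of both boxes at 23 of 40 genes, and it was within 50 bp of the middle of the pair at 30 of 40. In replicate 1 this last count was 28 of 39 and in replicate 2 it was 36 of 40.

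**Figure D5:**
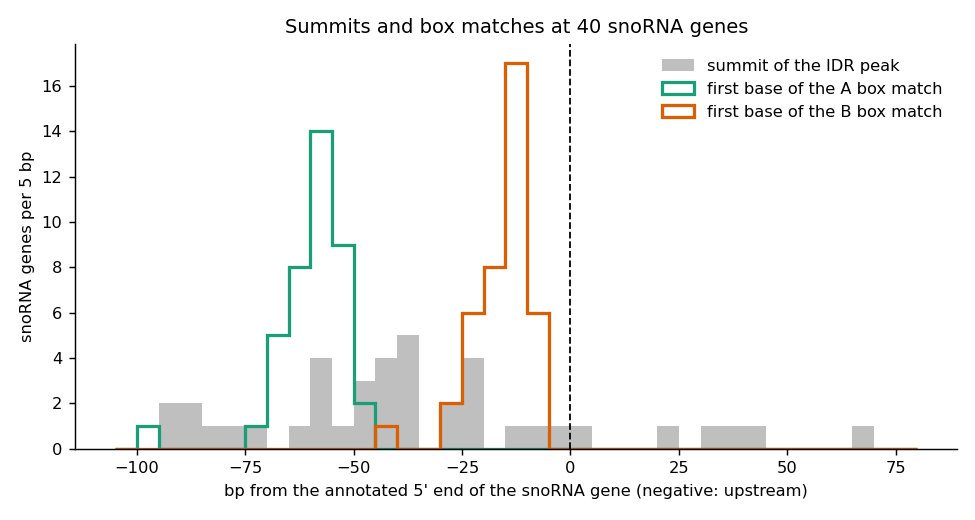
Position of the IDR summit (grey bars) and of the first base of the A box (green line) and B box (orange line) at the 40 snoRNA genes with an IDR peak and a box pair, in bp from the annotated 5′ end of the gene, counted in steps of 5 bp. The boxes pile up around -58 and -15 bp, and the summits are spread more widely around them, with some inside the gene.

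Simple words gave the same picture with fewer hits. The B box core GTTCGA, on either strand of the upstream 100 bp, was in 16 of 44 genes with an IDR peak, or 36.4% (23.8 to 51.1), in 10% of those with a pooled-list peak only, in 3.17% of those with none and in 2.94% of other genes. The longer GGTTCGA, which contains it, was in 20.5%, 2.00%, 1.59% and 0.470% of the same groups, and the A box consensus in 54.5%, 14.0%, 4.37% and 2.42%. Many pairs differ from the consensus by a base or more, as in the printed T03F7.8 and C04G6.12, whose B boxes lack GTTCGA.

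Runs of T after the gene also moved with the peaks. A run of TTTT, the termination signal of that polymerase, began in the 20 bp after the annotated end at 39 of 44 genes with an IDR peak, or 88.6% (76 to 95). It was there at 23 of 50 genes with a pooled-list peak only, or 46.0% (33.0 to 59.6), and at 83 of 252 with none, or 32.9% (27.4 to 39.0). The share was 34.8% over other genes and 98.4% over tRNA genes. The 5 genes with an IDR peak and no such run were B0334.12, C51F7.4, F30H5.4, F32E10.10 and T04A8.17.

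The E-box, the site of the HLH-15 family, differed less between these groups than the boxes did. It was searched only as the short word CANNTG, which is far looser than a scored box pair. The contrast between them is therefore of unlike stringency. CANNTG was in the upstream 100 bp of 18 of 44 genes with an IDR peak, or 40.9% (27.7 to 55.6), of 26% with a pooled-list peak only, of 31.3% (25.9 to 37.3) with none and of 28.4% of other genes, and these intervals overlap. Among the 40 genes with an IDR peak and a box pair 17 had an E-box there, and at 8 of them it overlapped the A box. In T03F7.8, printed before, the A box TGGCCAAGTGG contains the E-box CAAGTG. No match says only that these letters were not in this window.

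Genes with a peak were also shorter than other snoRNA genes. The median length was 75.5 bp for the 44 with an IDR peak, 131 bp for the 50 with a pooled-list peak only and 133 bp for the 252 with none. Of the 95 genes of at most 100 bp 27 had an IDR peak, or 28.4% (20.3 to 38.2), and of the 251 longer ones 17, or 6.77% (4.27 to 10.6). Length and box pair moved together in part: with a pair it was 23 of 28 shorter genes, or 82.1% (64.4 to 92.1), and 17 of 31 longer ones, or 54.8% (37.8 to 70.8). Without a pair it was 4 of 67 shorter genes and 0 of 220 longer ones, which allows a share of up to 1.36%. Among the 44 genes, length and log2 pooled signal correlated across genes with r of -0.48 and rho of -0.44, while in the 40 with a pair, score and log2 signal gave r of 0.21 and rho of 0.20.

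Besides ZK994.7, whose best score was -8.13, 3 genes had an IDR peak without a pair in the window. ZK265.10, with 295 pooled, scored 8.94, just under the threshold. C51F7.4, an exon-overlapping neighbour in front of C51F7.3, shares its peak and contains that gene's pair, with a score of 29.74 and starts 10 and 64 bp into C51F7.4. B0334.12 is the gene with a downstream summit, at 159 bp, and a pair with a score of 28.37 lies there on the opposite strand, with its A box starting 131 bp and its B box 88 bp from the 5′ end of B0334.12. This stretch, chrII:11484753-11484854 on the minus strand with the boxes in capitals, shows a pair that reads back toward the snoRNA gene.
B0334.12: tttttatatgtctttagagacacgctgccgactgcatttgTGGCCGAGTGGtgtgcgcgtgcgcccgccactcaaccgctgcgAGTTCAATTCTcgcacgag
At ZK994.7, by contrast, the best pair within 250 bp of the gene scored 6.61 on its own strand and -5.13 on the opposite one, both under the threshold.

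The 19 genes with a pair and no IDR peak were spread over all classes. ZK546.18, H04D03.5 and T10B9.11 came nearest, with pooled signals of 48.8, 50.3 and 44.1 and a peak in both replicates, of 26.7, 30.1 and 26.2 in replicate 1 and 20.2, 19.9 and 16.1 in replicate 2. R166.7, with a score of 33.42, had 24.6 pooled and no peak in a replicate list. That pooled summit lay 222 bp from the 5′ end, downstream of the gene and away from its boxes. The gene also had a pair on the opposite strand, with a score of 15.6. Y59E1B.14, with 33.83, and F19H8.6, with 25.18, had no peak in any of the 4 lists. A sequence pair as good as those of the strongest genes was therefore found with and without a peak.

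The snoRNA genes of the X chromosome had no IDR peak, 0 of 33, which allows a share of up to 9.09%. On the autosomes it was 44 of 313, or 14.1% (10.6 to 18.3), and among all other annotated genes 0.943%. Of the 33 genes 4 had a pair, or 12.1% (4.82 to 27.3), against 55 of 313 on the autosomes, or 17.6% (13.8 to 22.2), shares whose intervals overlap. An IDR peak was found at 0 of those 4, against 40 of 55 autosomal genes with a pair, or 72.7% (59.8 to 82.7). These 4 genes are too few for a limit of any use. In the pooled list 5 of the 33 had a peak, or 15.2% (6.65 to 30.9), against 18.7% of other annotated genes. Signals of these 5 lay between 20.7 and 37.0, and C53B7.8 and K09E9.5 among them have a pair, with 30.5 and 20.7. tRNA genes on X did have IDR peaks, 64 of 276, or 23.2%.

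The limit of 100 bp did not cut through a crowd of genes. By the nearest IDR summit, just inside it were W08G11.6 at 95 bp, T04A8.17 at 91, B0334.12 and ZK265.10 at 90 and T19B4.8 at 87 bp. T02E1.9 is not among them, because its highest summit lay at -90 bp but another IDR summit was 39 bp away. Just outside were F39B2.14 at 106 bp, F59C6.15 at 108, M163.14 at 175, Y17G7B.25 at 244 and F37F2.4 at 272 bp. In the replicate 1 list, however, F39B2.14 had a summit at -21 bp with a signal of 48.1, so its place depends on the list. Of the 5 inside, W08G11.6, T04A8.17 and T19B4.8 had a pair, and the pair scores of the 5 outside were all below 0. No snoRNA gene had a tRNA gene within 100 bp, and of the IDR summits at the 44 genes 0 lay within 100 bp of a tRNA gene, the nearest being 910 bp away.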

How the data were processed

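Peak lists of HLH-15 ChIP-seq in late embryos, 1 for each of 2 replicates, 1 pooled and 1 passing the IDR threshold, were used on ce11. Per the deposited notes, the first 3 were made from the alignments and 1 control file and contain background besides peaks, and the IDR list was made from them. Signal values are a score from the authors, of unstated scale. Which aligner and peak caller were used is not given in the sources used here. Read depth is unknown, so no interval that needs it is given. The lists on ce10 were not used, because the annotation is of ce11.

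Genes came from Ensembl release 115 and sequence from NCBI, both WBcel235. Intronic genes lay wholly in an intron of a protein-coding transcript, and intergenic genes overlapped no protein-coding gene. A and B box matrices, 11 bp wide, were built from 165 of the 200 distinct sequences of the 612 tRNA genes. No snoRNA gene entered them. Summit assignment and box search were tested on simulated data. Python 3.11.15, numpy 2.4.6, pandas 2.3.3 and matplotlib 3.10.9 were used. With 1 group there was no contrast between conditions, and shares, medians and correlations are descriptions with no p-value.

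The members, motifs and box search were chosen with earlier results of these data known. Genes named were the 8 with the highest pooled signal in each of 3 classes, those nearest the distance limit and members of small groups. The genes named in addition, namely those with the best box pairs and no IDR peak, those with the weakest replicate values and Y71F9AM.7, were chosen after their values were seen.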

Additional observations from a re-analysis of the deposited data

How the results depend on the processing

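Of 91 values recomputed under other settings for the 10 main results, 68 stayed within the interval or spread of the reported value and 23 did not; 16 of the 91, all on the box pair, were added after the data were seen. With the summit inside the gene, 7 snoRNA genes had an IDR peak and 28 a pooled-list peak, the median position was 37.0 bp and 0% were upstream, as that setting requires. At 50 bp the median was -26.0 bp and at 500 bp it was -43.0 bp, with 158 genes in the pooled list. The 204 strongest IDR peaks gave -43.0 bp and left 49.2% of genes with a box pair with a peak. The pooled list with background gave -21.0 bp and 58.5% upstream. The log2 difference in median pooled signal, intronic minus intergenic, was not stable: 0.40 as reported, 0.16, 0.82, -0.24 and -0.02 at 0, 50, 250 and 500 bp, 0.17 with intronic taken as inside the span of a gene, and -0.26 to 0.07 when either replicate was left out. Leaving out a replicate gave a median position of -43.0 to -42.0 bp. The excess of GTTCGA, 33.2 percentage points between genes with an IDR peak and those with none, was 18.9 for GGTTCGA and 13.2 for the full B box consensus. The excess of box pairs, 86.5 points, was 52.6 at the lowest 5% of tRNA scores and 73.3 with boxes allowed only upstream of the gene. The cause of these shifts was not tested beyond what each setting fixes. No paired analysis was possible because there is 1 group. Depth is unknown, and the IDR list is cut on the pooled signal, so weaker sites at snoRNA genes cannot be told from background.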
